A study of Mus musculus with 6 samples.

Results

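The comparison described here set epiblast-like cells (EpiLC) treated with 2 kinase inhibitors against untreated EpiLC. It rests on 2 of the 6 arrays of the series, chosen by their labels, namely the array of EpiLC given CHIR99021 (CHIR) and PD0325901 (PD) and the array of EpiLC given neither. The quantity followed is the log2 difference of intensity, CHIR with PD minus untreated, for each of 22180 genes with a symbol of their own on the Mouse Gene 2.0 ST array, a microarray whose probes read transcripts along their length. Treated EpiLC received 3 µM CHIR and 1 µM PD for 24 hours, another EpiLC culture received 3 µM CHIR alone for the same time, and the last was not treated. All EpiLC had been made from the mouse embryonic stem cell (mESC) line EB3 by 2 days in the serum-free medium N2B27, to which 20 ng/ml Activin A was added along with 12 ng/ml bFGF, so every EpiLC culture, the untreated one included, carried both growth factors. The same 3 conditions were measured in mESC kept in N2B27 with LIF and BMP4. When during the 2 days of induction the 24 hours fell is not stated in the labels. PD was given together with CHIR in each state, so no array shows PD alone.

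EpiLC stand for the epiblast just after implantation, when naive pluripotency genes have been shut off and the cells are ready to form germ layers. FGF binds its receptors and acts through the kinases MEK and ERK, which switch on Ets and immediate early transcription factors together with inhibitors that dampen the same pathway. PD blocks MEK. CHIR blocks the kinase GSK3, so that beta-catenin escapes degradation and activates genes through TCF/LEF factors, which is how Wnt ligands act. CHIR and PD together are the 2 inhibitors of the 2i medium that is used to keep mESC naive.

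Each group was 1 array. The pair of EpiLC arrays therefore has no replicate error and no p-value, precision is limited by how few arrays there were, and fewer cells of a type and less RNA per cell cannot be told apart. The 6 arrays had median intensities of 60.5 to 65.2, and the lowest intensity was 16 on each. The state named in the labels was borne out by its markers in the untreated culture: Fgf5 stood at an intensity of 1258 in untreated EpiLC and 36.0 in untreated mESC, and Esrrb, an orphan nuclear receptor of naive cells, at 22.5 and 357. In EpiLC with CHIR and PD, Fgf5 was at 39.4 and Esrrb at 33.7, so neither of these genes was high on that array. Other markers were mixed there. Of EpiLC genes, Dnmt3b was at 788, Pou5f1 at 558 and Pou3f1 at 145, but Otx2 at 59.0 was below the array's median of 60.5. Of naive genes, Zfp42 was at 257 and Tfcp2l1 at 151, but Klf4 at 51.6 and Tbx3 at 44.9 were below that median.

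Treated EpiLC carried more genes that were higher than genes that were lower. Of 22180 genes, 581 (2.62%) were at least 2-fold higher with CHIR and PD than in untreated EpiLC and 330 (1.49%) were at least 2-fold lower. These shares are the background for the counts of list members in the EpiLC pair below. At 4-fold or more there were 82 higher and 60 lower genes, and at 8-fold or more 20 and 17. Over all genes the median log2 difference was -0.05 and the SD across genes 0.48. The 14 ribosomal protein genes looked at, which serve as a set that is similar in most cells, stayed between -0.33 and 0.16. These counts depend on how dim intensities are treated: when 16 was subtracted from every value and 64 added in its place there were 337 higher and 174 lower genes, and with 4 added there were 835 and 697.

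**Figure D1:**
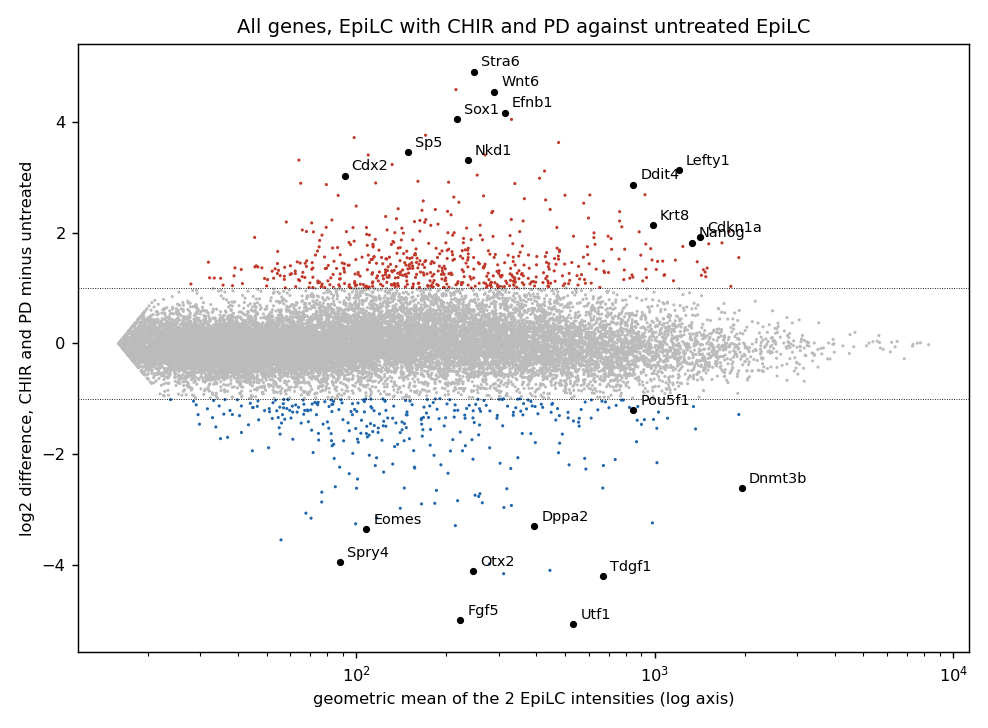
Log2 difference between EpiLC with CHIR and PD and untreated EpiLC (y) against the geometric mean of their 2 intensities (x, log axis), 1 point per gene, with 581 genes at least 2-fold higher in red and 330 at least 2-fold lower in blue. Utf1 and Fgf5 lie lowest and Stra6 and Wnt6 near the top, and points narrow towards the lowest intensity of 16 at the left edge.

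Inhibitors of ERK signalling that ERK itself induces were low in EpiLC with CHIR and PD. Of 12 feedback inhibitors 6 were at least 2-fold lower and 0 higher, with a median log2 difference of -0.89. Spry4, which encodes a Sprouty inhibitor of receptor signalling, was at an intensity of 22.3 with CHIR and PD, 338 with CHIR alone and 346 in untreated EpiLC. Spry2, of the same family, was at 68.6, 446 and 672 in that order of conditions. Spred3, a Sprouty-related inhibitor, stood at 120 with both inhibitors, against 915 with CHIR alone and 912 in untreated EpiLC. In all 3 the array with both inhibitors was far below the others, which lay closer together. Spry1 differed from these 3, at 78.9 with both inhibitors, 99.4 with CHIR alone and 159 untreated, so that its 2 treated arrays were closer together. Dusp4, which encodes a phosphatase that inactivates MAP kinases, was at 101 with CHIR and PD, 930.2 with CHIR and 665 untreated. Dusp6, a phosphatase for ERK, averaged -2.21, but its 2 probes differed widely, at -4.43 and 0.02. The rest of the list moved less, with Il17rd at -0.77, Spred1 at -0.74, Dusp7 at -0.75 and Dusp1 at 0.10, so feedback genes were not uniformly low.

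Transcription factors that act downstream of ERK were split between strongly lower and little different genes. Of 17 measured, 5 were at least 2-fold lower and 1 was higher, and the median was -0.31. The lower genes were the immediate early factor Egr1, the Ets factors Etv4, Etv1 and Etv5, and the growth regulator Myc. Egr1 had an intensity of 32.1 with CHIR and PD, 276 with CHIR alone and 308 in untreated EpiLC. Etv4 had 23.6, 226 and 211, and Etv1 had 49.97, 325 and 394, in that order of conditions. Etv5 averaged -2.84 over 2 probes, at -4.71 and -0.97. Myc differed from these in that the array with CHIR alone already lay below the untreated one, at 150.4 with both inhibitors, 276 with CHIR and 720.5 untreated. Fos at -0.15, Egr2 at -0.01, Junb at 0.15 and Ier3 at 0.09 were near 0, and Jun was higher, at 719 against 261 in untreated EpiLC.

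A response shared by EpiLC and mESC was tested in a limma fit of cell state plus treatment over all 6 arrays, which has 2 residual degrees of freedom and takes the departure from additive effects as its error. For CHIR with PD against untreated, 6 of 22180 genes (0.0271%) fell and 0 rose at a Benjamini-Hochberg adjusted p under 0.05, where 1519 and 1654 genes had an unadjusted p under 0.05. The fitted log2 difference of Spry4 was -4.01 (SE 0.12, adjusted p = 0.00244). That of Pim2, a serine/threonine kinase gene, was -3.03 (SE 0.16, adjusted p = 0.018). Etv4 had -2.87 (SE 0.19, adjusted p = 0.033) and Dusp4 -2.84 (SE 0.13, adjusted p = 0.0125). Dusp6 followed with -2.21 (SE 0.13, adjusted p = 0.028), and Tmem59l with -2.61 (SE 0.18, adjusted p = 0.033). All 6 were at least 2-fold lower in the EpiLC pair and in the mESC pair. Pim2 stood at 319 in EpiLC with CHIR and PD, 932 with CHIR and 3021 in untreated EpiLC. Myc (adjusted p = 0.0763) and Utf1 and Otx2 (adjusted p = 0.0887 each) missed the limma threshold. The calls rest on the settings: without the 2 arrays of CHIR alone 36 genes fell and 12 rose, among them the 6, and with trend and robust moderation 25 fell and 28 rose. With a constant of 4 in place of 16, 1 gene fell (Spry4), and with 64, 1 gene (Dusp4). Among genes at an intensity of 64 or more, 4 fell, and the calls of Etv4 and Tmem59l were lost.

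The genes of FGF ligands and receptors did not move as a group. Of 11 measured, 3 were at least 2-fold lower and 2 higher. The 3 lower were ligand genes: Fgf5 was at 39.4 with CHIR and PD, 770.0 with CHIR alone and 1258 untreated, Fgf4 at 119, 53.7 and 508, and Fgf15 was at 123 against 282 in untreated EpiLC, with its 2 probes at log2 differences of -1.86 and -0.51. Fgf5 was thus far lower with both inhibitors than with CHIR alone, whereas Fgf4 was lowest with CHIR alone. Fgf8, a ligand of the streak and tail bud, went the other way, at 533 with both inhibitors, 286 with CHIR and 91.3 untreated. The receptor gene Fgfr1 was at 1011 against 400 in untreated EpiLC, and Fgfr2, Fgfr3 and Fgfr4 stayed within a log2 difference of -0.29 to 0.74.

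Negative-feedback and target genes of Wnt signalling were high. Of 15 measured, 9 were at least 2-fold higher with CHIR and PD and 0 were lower (median log2 difference 1.14). The caudal factor gene Cdx1, counted again among the Cdx and Hox genes below, was 1 of the 9. Nkd1, which encodes an inhibitor of Dishevelled, was at an intensity of 742 with CHIR and PD, 344 with CHIR alone and 75.03 in untreated EpiLC. Sp5, a zinc finger factor induced directly by beta-catenin, was at 491, 335 and 45.0, and its relative Sp8 at 405, 479 and 101. Both arrays with CHIR stood above the untreated array for these 3 genes. Axin2, a scaffold of the beta-catenin destruction complex, was at 341 with both inhibitors, 307 with CHIR and 165 untreated, with its 2 probes at log2 differences of 0.81 and 1.29. The receptor-trimming ubiquitin ligase Rnf43 was higher by 1.21 and the receptor gene Tnfrsf19 by 1.14. Notum, an enzyme that inactivates Wnt ligands, averaged 1.82 over probes at 0.25 and 3.39. Dkk1, a secreted inhibitor of the Wnt co-receptor, was at 101 with both inhibitors, 559 with CHIR alone and 44.5 untreated, so its level with PD present was much nearer the untreated one. Lef1, a DNA-binding partner of beta-catenin, was at 700.4 against 1233 in untreated EpiLC, and Ccnd1 was at -0.60, so the list held genes below the untreated level as well. Of the 15, 5 were at least 2-fold higher when 64 replaced 16 as the constant.

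The Sp5 promoter is shown because Sp5 had the highest difference in the list and because TCF/LEF factors bind the letters ATCAAAG. The window runs from 250 bases before to 50 bases after the start site (RefSeq, GRCm38.p6, chr2:70474673-70474972, plus strand), and capitals mark the match, which lies on the opposite strand at bases 147 to 153.
Sp5 promoter: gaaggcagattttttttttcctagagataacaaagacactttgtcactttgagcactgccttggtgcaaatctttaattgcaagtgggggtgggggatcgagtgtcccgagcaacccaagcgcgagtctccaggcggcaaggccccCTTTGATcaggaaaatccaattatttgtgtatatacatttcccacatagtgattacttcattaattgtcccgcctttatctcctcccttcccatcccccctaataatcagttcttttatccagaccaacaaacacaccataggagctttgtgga
On either strand ATCAAAG occurred in 3.73% of the 32851 promoter windows of the table. Of the 16 genes on the Wnt list 10 had a window there, and the letters occurred in windows of 2 of them, Sp5 and Tnfrsf19. A match describes letters in the window and does not show binding.

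Among 26 genes of Wnt ligands, receptors and secreted modulators, 7 lay 2-fold or more above the untreated level and 1 below it (median 0.19). Wnt6, a ligand gene, was at an intensity of 1396 with CHIR and PD, 81.1 with CHIR alone and 60.0 in untreated EpiLC. Wls, which carries Wnt ligands to the cell surface, was at 1030.3, 446 and 193, and the receptor gene Fzd10 at 425, 133 and 79.6. Wnt6 was therefore high on the array with both inhibitors alone, while Wls was also above the untreated level with CHIR. Wnt5a was higher by 1.67, Fzd2 by 1.22, Wnt8a by 1.17 and Wnt3 by 1.02. Fzd7 was the 1 gene at least 2-fold lower, at 143 against 642 in untreated EpiLC. Wnt3a and Frzb were high with CHIR alone, at 232 and 328, and stood at 60.0 and 35.1 with both inhibitors, against 61.0 and 27.2 untreated.

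The caudal factor genes Cdx1 and Cdx2 and the anterior Hox genes Hoxb1 and Hoxb2 were high. Of 22 Cdx and Hox genes measured, 4 were at least 2-fold higher and 0 lower, and the median was 0.03. Cdx2, a caudal and trophectoderm factor, was at 260.5 with CHIR and PD, 143 with CHIR and 32.0 untreated. Cdx1 was at 202, 153 and 20.4. Both Cdx genes were higher with both inhibitors than with CHIR alone, but by less than 2-fold, with log2 differences of 0.86 for Cdx2 and 0.40 for Cdx1. Hoxb1 was at 403 with both inhibitors, 2008 with CHIR alone and 43.0 untreated, and Hoxb2 at 219, 1102 and 34.4. Both Hox genes lay between their untreated level and the level with CHIR alone. The other 18 genes, posterior Hox genes among them, lay between -0.45 and 0.72.

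Core pluripotency genes were mostly low, with Nanog as the exception. Of 12 genes 8 were at least 2-fold lower with CHIR and PD and 1 was higher (median log2 difference -1.97). Utf1, a chromatin-associated factor, had the lowest difference of all named genes at -5.08, with an intensity of 91.7 with CHIR and PD, 473 with CHIR alone and 3091 in untreated EpiLC. Tdgf1, which encodes the Nodal co-receptor Cripto, was at 156 with both inhibitors, 2354 with CHIR and 2873 untreated. Utf1 was low on both arrays with CHIR, whereas Tdgf1 was low on the 1 array with PD. Dppa2 was at 125, 216 and 1239, L1td1 at 271, 472 and 1656, and Dppa4 at 89.9, 166 and 457. Each of these 3 was lowest with both inhibitors. Pou5f1, which encodes Oct4, was at 558, 881 and 1290, a log2 difference of -1.21. Sox2 was at 302 with both inhibitors, 106 with CHIR alone and 599 untreated, and Sall4 was at -0.28. Nanog was at 2498 with both inhibitors, 496 with CHIR and 709 untreated, higher by 1.82.

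Formative genes, which mark the epiblast after implantation, were low as well. Of 12 measured, 7 were at least 2-fold lower while 1 was higher (median -1.21). Besides Fgf5, the homeobox gene Otx2 was at 59.0 with CHIR and PD, 310 with CHIR and 1025 untreated. Dnmt3b, which encodes a DNA methyltransferase, was at 788, 1279 and 4847. Both genes were lowest with both inhibitors and intermediate with CHIR alone. Pou3f1 was at 145, 123 and 538, Foxd3 at 54.7, 65.0 and 188, and Sall2 at 147, 128 and 362, where the 2 treated arrays were close. Wnt8a was the gene that was higher, and Zic2 was at -0.40.

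Naive pluripotency genes stayed near their untreated EpiLC level with 3 exceptions. Of 16 measured, 3 were at least 2-fold higher while 0 were lower (median 0.13). Tfcp2l1, a naive transcription factor, was at 151 with CHIR and PD, 44.9 with CHIR and 39.0 untreated, and Klf2 at 307, 67.4 and 117. In mESC with CHIR and PD these genes were at 1884 and 1732. Gbx2 averaged 1.60 over probes at 0.55 and 2.65, so its brighter probe did not reach 2-fold. Zfp42, also called Rex1, was at 257 against 327 in untreated EpiLC, and Tbx3 at 44.9 against 43.0. Klf4 was at 51.6 and 36.0 in that order, while in mESC with both inhibitors Esrrb and Klf4 stood at 524 and 572.

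**Figure D2:**
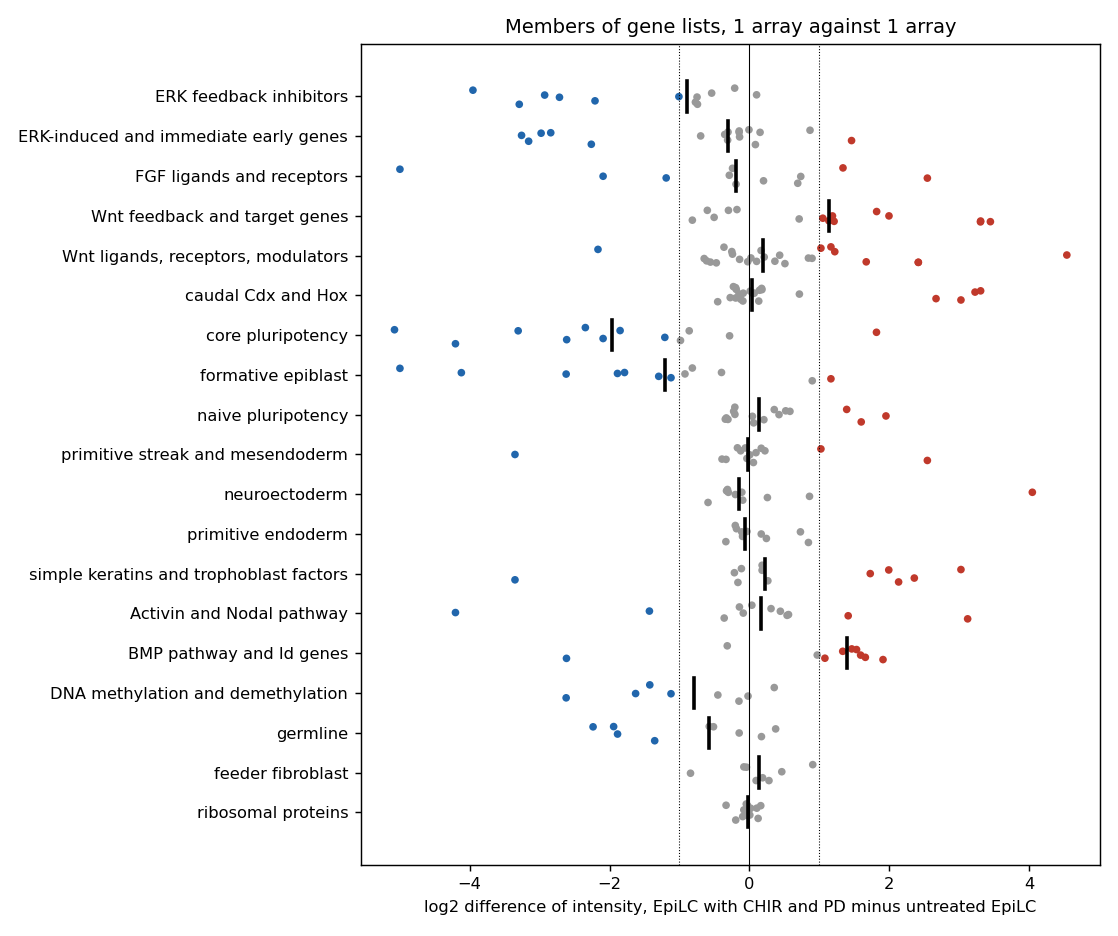
Log2 difference between EpiLC with CHIR and PD and untreated EpiLC (x) for the measured members of 19 gene lists (rows), 1 point per gene, red and blue for genes at least 2-fold higher or lower and black bars for list medians. Core pluripotency (median -1.97) and formative genes (-1.21) lie to the left, Wnt feedback (1.14) and BMP genes (1.40) to the right, and ribosomal protein genes around 0.

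Of 11 microRNA genes of clusters active in pluripotent cells, 5 were at least 2-fold lower and 0 higher, where 1.49% and 2.62% of all genes were. In mESC 4 of the 5 were at least 2-fold lower as well, where 0.848% of all genes were. Of all genes lower in EpiLC, 21.2% were also lower in mESC. Of the 4, Mir302a and Mir302d stood at 25.8 and 28.0 in mESC with both inhibitors, near the lowest intensity of 16. All 11 were chosen after their values had been seen, and whether the probes read the mature form, the hairpin or its primary transcript cannot be told from the array. They belong to the miR-302, miR-290 and miR-106a-363 clusters. The seed of a microRNA is the stretch of bases 2 to 8 that pairs with targets. The mature sequences (RefSeq, GRCm38.p6) are shown so that the seeds, in capitals, can be compared.
mmu-miR-302b-3p: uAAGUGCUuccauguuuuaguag
mmu-miR-302c-3p: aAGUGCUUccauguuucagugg
mmu-miR-302d-3p: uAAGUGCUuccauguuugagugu
mmu-miR-290a-3p: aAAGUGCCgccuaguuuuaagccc
mmu-miR-20b-5p: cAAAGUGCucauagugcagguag
mmu-miR-18b-5p: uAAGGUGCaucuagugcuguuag
mmu-miR-363-3p: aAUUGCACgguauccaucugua
mmu-miR-367-3p: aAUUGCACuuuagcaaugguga
mmu-miR-92a-3p: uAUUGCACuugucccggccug
On GRCm38.p6 miR-302b-3p lies at chr3:127545275-127545297, miR-302d-3p at chr3:127545665-127545687 and miR-367-3p at chr3:127545779-127545800, on the plus strand. On the same strand miR-290a-3p lies at chr7:3218674-3218697. On the minus strand miR-18b-5p lies at chrX:52742381-52742403, miR-363-3p at chrX:52741697-52741718 and the copy of miR-92a-3p shown at chrX:52741854-52741874. The seed AAGUGCU is shared by miR-302b-3p and miR-302d-3p, and AUUGCAC by miR-363-3p, miR-367-3p and miR-92a-3p, which come from chromosome X and chromosome 3. The gene Mir302a was at an intensity of 144 with CHIR and PD, 193 with CHIR alone and 333 in untreated EpiLC. Mir302d was at 90.1, 145 and 198, and Mir302c at 108, 163 and 210. All 3 were lowest with both inhibitors and highest untreated, with log2 differences of -1.21, -1.13 and -0.96, and they lie within 1 short stretch of chromosome 3, so that they may not be independent readings. Mir290a was at 115 with both inhibitors, 92.8 with CHIR and 384 untreated. Mir18b, Mir363, Mir20b and Mir92-2 likewise lie within 1 short stretch, on chromosome X, and may not be independent readings. Mir18b was at 62.1, 132 and 196 and Mir363 at 57.7, 83.1 and 117, while Mir20b at -0.80 and Mir92-2 at -0.90 did not reach 2-fold. Nor did Mir302b, at 42.6 against 49.5 in untreated EpiLC (-0.22), Mir367 at -0.74 or Mir19b-2 at -0.53. With a constant of 64 in place of 16, Mir302a was at -0.99, Mir302d at -0.83 and Mir363 at -0.64.

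Genes of the primitive streak and early mesoderm, which were mostly high with CHIR alone, were mostly near the untreated level with both inhibitors. Of 14 measured, 2 were at least 2-fold higher with CHIR and PD and 1 was lower (median -0.01), whereas 8 of the 14 were at least 2-fold higher with CHIR alone (background 1.77% of all genes), both set against the same untreated array. Msgn1, a presomitic mesoderm factor, was at an intensity of 51.7 with both inhibitors, 3768 with CHIR alone and 65.2 untreated. Lhx1 was at 48.6, 2121 and 63.7, Mixl1 at 172, 3378 and 179, and Tbx6 at 61.3, 816 and 52.5. For these 4 genes the log2 difference between both inhibitors and untreated lay between -0.39 and 0.22. Eomes, a T-box factor of the streak and of definitive endoderm, did not follow them and was at 33.7 with both inhibitors, 390 with CHIR and 345 untreated. The 2 higher genes were Fgf8 and Wnt3, both ligands. Aplnr, the receptor gene for apelin in mesoderm, was at 356 with both inhibitors, 4485 with CHIR and 33.7 untreated, higher by 3.40.

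**Figure D3:**
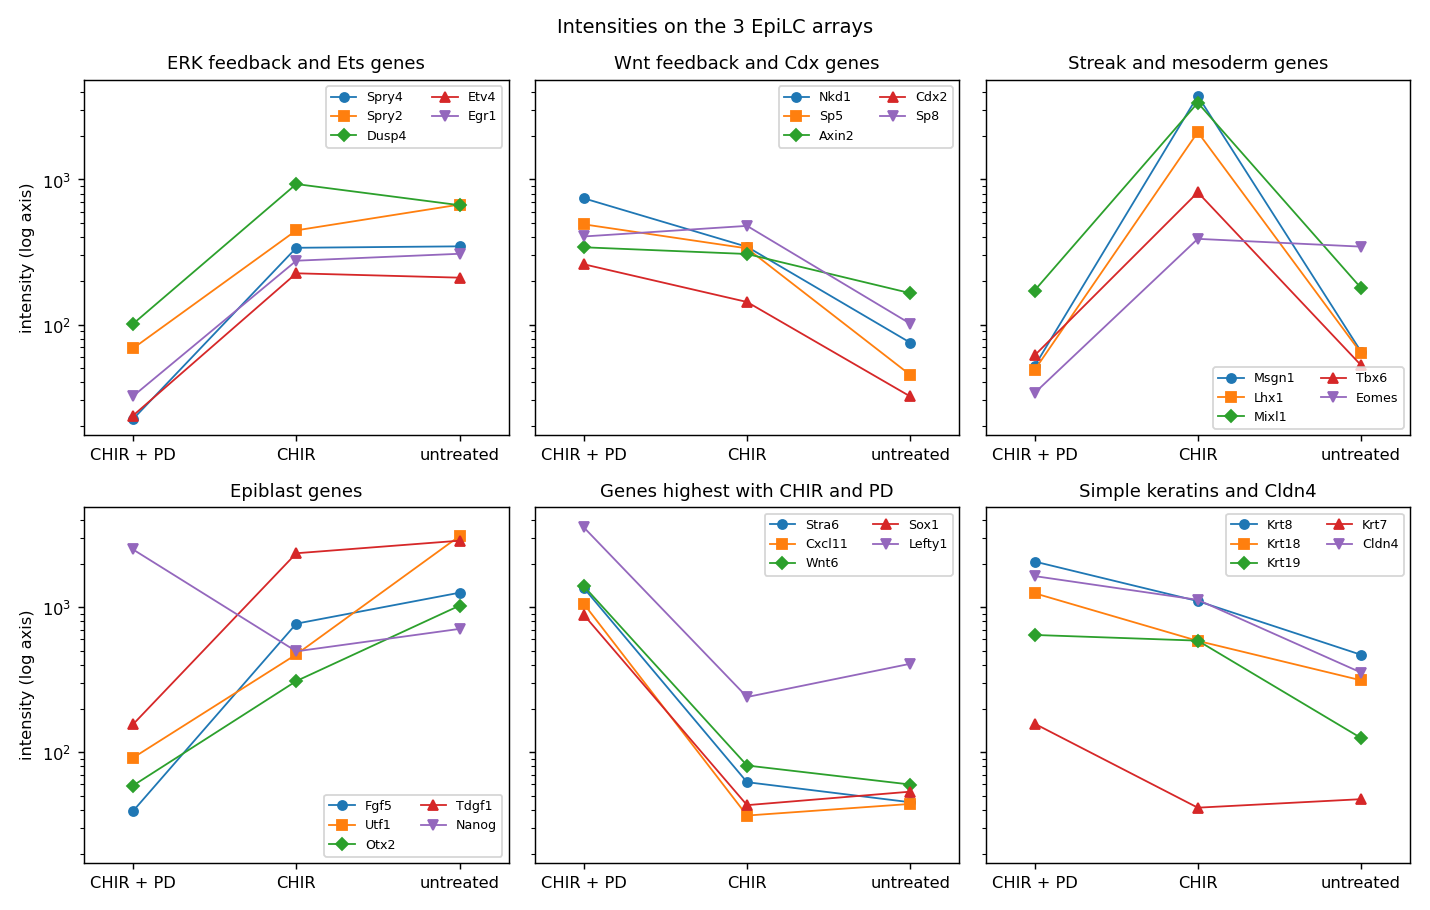
Intensity (y, log axis) on the 3 EpiLC arrays, CHIR with PD, CHIR and untreated (x), 1 point per array, with lines that only join the points of a gene. Spry4, Dusp4 and Etv4 are low on the array with both inhibitors, Msgn1, Lhx1 and Mixl1 are high on the array with CHIR alone, and Stra6, Cxcl11, Wnt6 and Sox1 are high on the array with both inhibitors.

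Several of the genes with the highest differences in the pair were high on the array with both inhibitors and not on the other EpiLC arrays. Stra6, which encodes a receptor that takes up retinol, was at an intensity of 1356 with CHIR and PD, 62.2 with CHIR alone and 45.3 in untreated EpiLC. Sox1, a factor of the early neural plate, was at 885, 43.2 and 53.5, and Cda, a cytidine deaminase, at 1671, 126 and 136. On the mESC arrays Stra6 did not exceed 62.4 and Cda did not exceed 137. Efnb1, which encodes the membrane ligand ephrin-B1, was graded, at 1329 with both inhibitors, 228 with CHIR and 74.1 untreated. The homeodomain gene Pknox2 was at 1343, 706 and 81.5, and the forkhead gene Foxb1 at 627, 302 and 46.4. These 3 were above the untreated level with CHIR alone too. Ephx3, an epoxide hydrolase gene, was at 878, 58.6 and 83.1.

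The chemokine genes Cxcl11 and Cxcl10, ligands of the receptor Cxcr3 that interferon is known to induce, were high together. Cxcl11 was at 1055 with both inhibitors, 36.7 with CHIR and 44.1 untreated, and Cxcl10 at 869.8, 57.5 and 53.4. Of the 13 CXC chemokine and interferon-stimulated genes measured these were the 2 at least 2-fold higher, and 0 were lower (median 0.00). The interferon-stimulated genes Ifit1, Ifit3, Isg15 and Irf7 had log2 differences of -0.25, -0.73, 0.15 and 0.00, and Cxcl9, another ligand of Cxcr3, was at -0.16. The rest of the list thus did not accompany the pair. The Cxcl10 promoter is shown because 2 motifs of kinds known from interferon and NF-kB responses occur in it, both in capitals. They are the interferon-stimulated response element, searched as GAAA, any 2 bases and GAAA, at bases 38 to 47, and a kappaB motif, searched as exactly the 10 letters that stand in capitals at bases 92 to 101 (RefSeq, GRCm38.p6, chr5:92348840-92349139, minus strand).
Cxcl10 promoter: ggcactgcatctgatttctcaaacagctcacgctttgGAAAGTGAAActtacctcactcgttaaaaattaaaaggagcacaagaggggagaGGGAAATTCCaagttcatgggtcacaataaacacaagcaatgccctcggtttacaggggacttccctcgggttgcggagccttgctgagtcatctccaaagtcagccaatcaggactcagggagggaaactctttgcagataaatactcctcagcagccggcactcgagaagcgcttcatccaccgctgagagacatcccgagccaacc
On either strand the first occurred in 3.44% and the second, as those exact letters, in 0.11% of the 32851 windows. Other spellings of a kappaB motif were not searched, so that share does not cover them and the window may hold unmarked ones. The matches describe letters and say nothing of which factor acted.

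Retinoic acid genes other than Stra6 differed less. Of 9 measured, 2 were at least 2-fold higher while 1 was lower (median 0.39). Dhrs3, a retinal reductase gene, was at 189 with both inhibitors, 32.3 with CHIR and 66.3 untreated, and Crabp1, a retinoic acid binding protein gene, at 62.6, 185 and 147. Cyp26a1, which degrades retinoic acid, was at 29.9 with both inhibitors and 29.7 untreated, against 917 with CHIR alone. Rarb, a receptor gene that retinoic acid induces, was at 45.1 against 34.5 in untreated EpiLC.

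Activin and Nodal pathway genes went both ways. Of 12 measured, 2 were at least 2-fold higher while 2 were lower (median 0.17). Lefty1, a secreted inhibitor of Nodal, was at an intensity of 3548 with CHIR and PD, 240 with CHIR alone and 407 in untreated EpiLC. Lefty2, of the same function, was at 556, 495 and 209. The co-receptor gene Tdgf1, given above, had a log2 difference of -4.20, and the inhibitory Smad gene Smad7 was at 151, 69.3 and 408. Nodal itself was at 579 against 398 in untreated EpiLC, and the Nodal effector gene Foxh1 was at -0.14. Fst, which encodes a secreted inhibitor of Activin, was at 1152 against 1124 in untreated EpiLC, so Lefty1 and Lefty2 were high and this inhibitor was not.

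BMP pathway and Id genes were higher from a low untreated level. Of 10 measured, 7 were at least 2-fold higher while 1 was lower (median 1.40). Id3, an inhibitor of differentiation that BMP induces, was at 190.3 with CHIR and PD, 70.1 with CHIR and 63.1 untreated. Id1 was at 144, 119 and 57.3, and Id4 at 88.5, 32.9 and 23.5. The ligand genes Bmp7 and Bmp2 were at 257 and 96.8 with both inhibitors, 577 and 81.9 with CHIR, and 88.8 and 30.7 untreated. Id2 went against the others, at 40.4 with both inhibitors, 82.2 with CHIR and 248 untreated. With a constant of 64 in place of 16 the count was 2 higher genes.

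The 4 keratin genes of simple epithelia and Cdx2 were high, while 6 other trophoblast factors stayed near their untreated level. Of 12 genes 5 were at least 2-fold higher and 1 was lower (median 0.22). Krt8 was at an intensity of 2064 with CHIR and PD, 1102 with CHIR alone and 470.0 in untreated EpiLC. Its filament partner Krt18 was at 1248, 586 and 313, Krt19 at 644, 588 and 125, and Krt7 at 158, 41.5 and 47.5. Krt8 and Krt18 were graded across the 3 arrays, and Krt7 was high on 1. The fifth higher gene was Cdx2. Gata3, Gata2, Elf5, Tfap2c, Tead4 and Hand1, which mark trophoblast, lay between -0.21 and 0.26, and Eomes was the lower gene. Summed over the 12, the intensity was 4735 with both inhibitors, 3155 with CHIR and 1663 untreated, and Elf5 was at 59.6, 62.1 and 64.5.

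Among 17 genes of cell junctions and epithelial-mesenchymal transition, 3 lay 2-fold or more above the untreated level and 1 below it (median 0.29). The tight junction gene Cldn4 was at 1638 with both inhibitors, 1124 with CHIR and 354 untreated, and Cldn3 at 624, 262 and 179. Vim, the intermediate filament gene of mesenchyme, was at 3267, 2521 and 1118. Cdh1, which encodes E-cadherin, was at 918 against 859 in untreated EpiLC and Epcam at 851 against 1053, so these epithelial adhesion genes were near their untreated level. Cdh2, which encodes N-cadherin, was at 472 with both inhibitors, 1554 with CHIR and 253 untreated.

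Genes for de novo DNA methylation were low. Of 8 genes of DNA methylation and demethylation, 4 were at least 2-fold lower while 0 were higher (median -0.79). Beside Dnmt3b, the methyltransferase gene Dnmt3a was at 503 with CHIR and PD, 442 with CHIR and 1094 untreated, its cofactor gene Dnmt3l at 42.5, 36.7 and 131, and the dioxygenase gene Tet1 at 339, 296 and 909. For these 3 the arrays of CHIR with PD and of CHIR alone were close, and both lay below the untreated array. The maintenance genes Dnmt1 and Uhrf1 had log2 differences of -0.15 and -0.45. Germline genes, many of which promoter methylation silences, were lower too: of 9 measured, 4 were at least 2-fold lower and 0 higher, with Mael at 40.5 against 191, Dazl at 26.4 against 97.6 and Ddx4 at 145 against 370 in untreated EpiLC. The testis histone genes H2ac1 and H2bc1 were at 108 and 16.3 with both inhibitors, 184 and 29.6 with CHIR, and 1843 and 191 untreated, where 16.3 lies at the lowest intensity of the array.

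Markers of other cell types were looked at on the same arrays. In the primitive endoderm list 0 of 10 genes were at least 2-fold higher or lower, and the summed intensity was 864 with both inhibitors, 1863 with CHIR and 812 untreated, with Gata4 at 44.6, Sox7 at 50.9 and Gata6 at 75.6 with both inhibitors. In the feeder fibroblast list 0 of 8 were at least 2-fold higher or lower, the sums were 1495, 705 and 1117, and Col1a1 was at 370 with both inhibitors against 198 untreated (0.91), Acta2 at 845 against 613 (0.46) and Thy1 at 44.6 against 80.0 (-0.84). Lum at 23.7 and Col1a2 at 53.3 were below the array's median with both inhibitors. In the neuroectoderm list 1 of 10, Sox1, was at least 2-fold higher, and Nes was at 688 with both inhibitors against 379 untreated (0.86) and Hes5 at 0.26. Pax6 was at 82.3 against 124 and Sox3 at 144 against 179 in untreated EpiLC. The sums of the neuroectoderm list were 2181, 1155 and 1152. The part of such cells in the results above was not tested.

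Among cyclin and CDK inhibitor genes 2 of 10 were at least 2-fold higher and 1 was lower, where 2.62% and 1.49% of all genes were. The CDK inhibitor gene Cdkn1a was at 2764 with CHIR and PD, 1910.2 with CHIR alone and 732 untreated, and the cyclin gene Ccnd2 at 969, 992 and 227. Ccne1, a cyclin gene of S phase entry, was at 550.5, 607 and 1228. Ddit4, a stress-induced inhibitor of mTORC1, was at 2286, 2255 and 314, where the 2 treated arrays lay close, and Atf3 at 435, 246 and 166. They were the 2 higher of 11 amino acid and ER stress genes, with 0 lower. Of 11 glycolysis and hypoxia genes 1 was higher, the glucose transporter gene Slc2a3 at 3569, 1909 and 882, and 0 were lower. Of 8 cholesterol synthesis genes 0 were past 2-fold, with all 8 between 0.00 and 0.73.

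The same combination was given to mESC, on 2 arrays that share none with the EpiLC pair. In mESC 137 genes (0.618%) lay 2-fold or more above the untreated level and 188 (0.848%) below it. Of the higher genes 55 were higher in both states, 9.47% of the EpiLC genes and 40.1% of the mESC genes. Of the lower genes 70 were lower in both, 21.2% of the EpiLC genes and 37.2% of the mESC genes. These counts depend on the constant: with 4 in place of 16, 84 genes were higher in both states, and with 64, 23 were higher and 42 lower in both. Across genes, which are not independent replicates and share arrays of each state, the differences correlated with Pearson r = 0.35 and Spearman rho = 0.24. With 1 array per group, no difference between the states was tested.

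Of the 12 ERK feedback genes 5 were at least 2-fold lower in both states, namely Spry4, Spry2, Spred3, Dusp4 and Dusp6. Over all 22180 genes, 70 were lower in both. Spry1 was past 2-fold in EpiLC alone, at -1.01 against -0.78 in mESC, and Spred1 in mESC alone, at -0.74 in EpiLC and -1.67 in mESC. Spry4 had log2 differences of -3.95 in EpiLC and -4.07 in mESC, and Otx2 -4.12 and -3.35. Enpp3, an ectoenzyme gene that hydrolyses nucleotides, had -4.16 and -3.83, and Mycn had -1.63 and -1.30. Tdgf1 had -4.20 in EpiLC and -0.46 in mESC, Pou5f1 -1.21 and -0.26, and Sox2 -0.98 and 0.07. In mESC, core genes counted 3 of 12 at least 2-fold lower and 0 higher, where 0.848% and 0.618% of all genes were. Nkd1 had 3.31 in EpiLC and -0.04 in mESC, Sp8 2.00 and -0.10 and Wnt6 4.54 and 0.14, whereas Sp5 (3.45 and 1.66), Krt8 (2.13 and 1.27) and Cdkn1a (1.92 and 1.31) were higher in both. Gata2 was higher by 1.77 in mESC and stood at 0.18 in EpiLC.

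**Figure D4:**
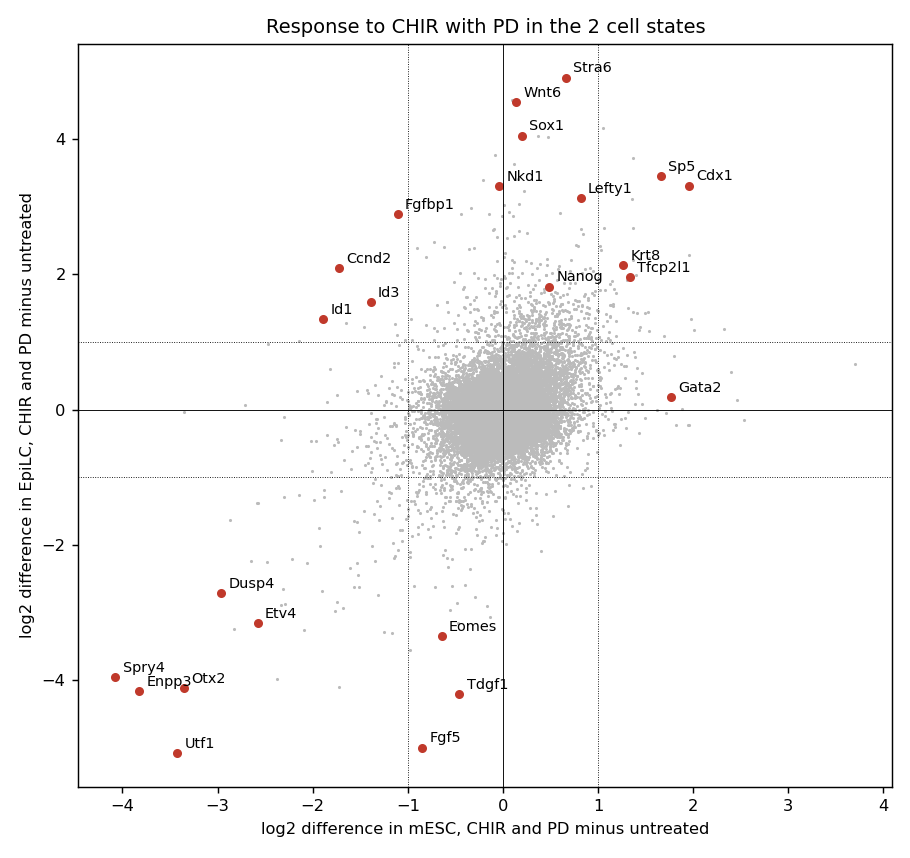
Log2 difference of CHIR with PD minus untreated in EpiLC (y) against the same in mESC (x), 1 point per gene, with dotted lines at 2-fold. Spry4, Enpp3 and Otx2 lie low in both states, Fgf5 and Tdgf1 low on the EpiLC axis, Stra6 and Wnt6 high on the EpiLC axis, and Id1, Id3 and Ccnd2 in the upper left corner.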

How the data were processed

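Total RNA was labelled with the WT PLUS kit and hybridised to Mouse Gene 2.0 ST arrays, and the data were analysed by the authors with GeneSpring GX, per the series' design text. The deposited values are linear intensity values, 1 per transcript cluster. How the authors normalized them, and on which genome build, is not given in the sources used here. Values of 33793 probes were read, with 0 missing. The 23521 probes with 1 gene symbol were used and log2 intensity was averaged per symbol (1082 genes had several probes), so printed intensities are geometric means. The 1814 probes with several symbols and the 8458 without a listed gene were left out. Entrez identifiers of 23328 probes were found in RefSeq, and 0 symbols changed. No filter on dim genes or further scaling was applied.

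A gene was called at a 2-fold difference between arrays. The shared response was fitted with limma 3.58.1 in R 4.3.3 (state plus treatment, eBayes, Benjamini-Hochberg over all genes, two-sided). In 10 simulations on 22180 genes, 200 genes were changed by the same amount in both states. Of the 2-fold changes 29.3% were found, and of those of 4-fold 94%. In these runs 4.65% of calls were false. The simulated response did not differ between the states, whereas in the data such a difference is the error of the fit. Whether the same shares hold for the measured genes was therefore not tested. Enpp3, Otx2 and Utf1 missed the limma threshold at log2 differences of -4.16, -4.12 and -5.08 in EpiLC and -3.83, -3.35 and -3.43 in mESC. Egr1 and Myc missed it as well, at -3.26 and -2.26 in EpiLC and -2.09 and -2.06 in mESC. The 6 genes that fell in the limma fit were at least 4-fold lower in both states too. Nothing says that any condition was repeated in separate cultures. With 1 array per group, the p-values rest on the departure from additive effects of state and treatment, not on a spread between replicates. Named genes are the 15 highest and 15 lowest at an intensity of 64 or more on 1 EpiLC array, and up to 6 members of each of 26 lists (331 genes, 312 measured), besides miRNA genes and genes set beside them. Members and lists were chosen with earlier results of these data known. Alternatives were a constant of 4 or 64 in place of 16 (the lowest intensity, 16, subtracted and the constant added), array medians set equal, quantile normalization, the brightest probe, a minimum intensity of 64, and for limma trend and robust moderation or leaving out the arrays of CHIR alone.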

Additional observations from a re-analysis of the deposited data

Results flagged for a closer look

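Some genes were at least 2-fold higher with CHIR and PD in EpiLC and at least 2-fold lower in mESC, and since each group was 1 array these differences between the states were not tested. The inhibitors of differentiation Id1 and Id3 had log2 differences of 1.34 and 1.59 in EpiLC and -1.89 and -1.39 in mESC. The mESC medium held LIF and BMP4 and the EpiLC medium Activin A and bFGF, so medium and cell state cannot be told apart. Id1 stood at an intensity of 144 with CHIR and PD and 57.3 untreated in EpiLC, and at 399 and 1480.2 in mESC. The cyclin gene Ccnd2 had 2.09 in EpiLC and -1.72 in mESC. Fgfbp1, which encodes a carrier of FGF ligands, had 2.88 and -1.10, and Has2, a hyaluronan synthase gene, 1.22 and -1.46. The mRNA-decay factor gene Zfp36l1 had 1.27 and -1.65, Zfp423 had 1.01 and -2.14, Selenop had 1.11 and -1.11, and Ndufa4l2 had 1.26 and -1.14. With the microRNA gene Mir3473c these make 10 genes, and 0 genes were lower in EpiLC and higher in mESC. With a constant of 64 in place of 16 the count of 10 became 4.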

How the results depend on the processing

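No paired analysis was possible because each group was 1 array and the arrays carry no replicate numbers. With a constant of 4 in place of 16, the count of lower genes in the EpiLC pair was 697, genes higher in both states numbered 84, genes higher in EpiLC and lower in mESC 19, and genes lower in EpiLC and higher in mESC 9. With a constant of 64 the EpiLC pair had 337 higher and 174 lower genes, 23 genes were higher and 42 lower in both states, and 4 were higher in EpiLC and lower in mESC. Quantile normalization gave 1 gene lower in EpiLC and higher in mESC. In limma, 1 gene fell with either constant, 25 fell and 28 rose with trend and robust moderation, and 36 fell and 12 rose without the arrays of CHIR alone. Among the named and listed genes none past 2-fold changed sign under an alternative run, and no list median past 2-fold did. Other genes were not checked for this. The share of higher genes among the calls of the EpiLC pair was 63.8% as deposited and lay between 54.5% (constant of 4) and 70.3% (array medians set equal). Signal near the lowest intensity limits the folds of dim genes.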

Other observations

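Lysosomal genes, listed after a look at the values, were mostly higher with CHIR and PD. Of 25 measured lysosomal enzyme and membrane protein genes, 24 lay above their untreated EpiLC level and 5 were at least 2-fold higher, with a median log2 difference of 0.77 beside -0.05 over all genes. Lamp2, a lysosomal membrane protein gene, was at an intensity of 874 with CHIR and PD, 736 with CHIR alone and 318 in untreated EpiLC. Hexa, a hexosaminidase gene, was at 711, 558 and 272, and Grn, which encodes progranulin, at 1642, 1364 and 701. The array with CHIR alone was above the untreated array for these genes as well. In mESC all 25 lay above the untreated level with CHIR and PD and 6 were at least 2-fold higher, where 0.618% of all genes were. Their median in mESC was 0.65, and the median over all genes in mESC was not computed. No test was made, because the list was written with the values known.

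Of 5 genes of neuronal intermediate filaments, likewise listed afterwards, 2 were at least 2-fold lower in treated EpiLC, Nefl at 313 with CHIR and PD, 272 with CHIR and 1445 untreated, and Nefh at 62.2, 75.9 and 282. Prph did not differ, at 98.4 with CHIR and PD and 98.7 untreated. Among 14 ephrin and Eph receptor genes 2 were at least 2-fold higher, Efnb1 and Epha4 (156 against 65.9 untreated), and 1 was lower, Epha1, at 257 with both inhibitors, 1274 with CHIR alone and 896 untreated. Of 9 desmosome genes 2 were higher, Dsp at 1056, 642 and 176 and Dsc2 at 201, 142 and 58.9.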
